A study of Rattus norvegicus with 12 samples.

Results

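The aquaporins are the channel proteins through which water, and for some members glycerol and other small solutes, cross cell membranes. The 9 genes described here are Aqp1, Aqp2, Aqp3, Aqp4, Aqp6, Aqp7, Aqp8, Aqp9 and Aqp11. They were represented by every probe set of the array whose platform annotation gave exactly 1 gene symbol and whose symbol was one of these 9. They are 9 of the 14217 genes that the array names in this way. The rule found 12 probe sets among the 31099 of the table: 3 for Aqp4, 2 for Aqp1 and 1 for each of the other 7 genes. The values of all 12 are given, and 7 to 9 of them passed the filter on dim probe sets and were tested in each comparison.

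The data are expression arrays of liver and renal cortex from 6 male rats. Of these, 3 received the solvent trichloroethylene (TCE) and 3 received corn oil, with 1 array for each tissue of each rat and so 12 arrays in all. The rats, whose strain the labels give both as F-344 and as Wistar-derived, were 7 to 9 weeks old and weighed 190 to 240 g. TCE went in by mouth at 16 mg/kg each day for 3 days, dissolved in corn oil at 5 ml/kg, and the controls received the oil alone. Both groups were killed 24 h after the last dose, and about 50 mg of each tissue was taken for RNA. The title of the series concerns the excretion of formic acid after TCE. The comparisons below ask which tissue held each aquaporin message and whether TCE altered its level in either tissue. Urine volume was recorded according to the labels and was not analysed here.

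Aqp1, Aqp2, Aqp4 and Aqp8 are usually described as channels selective for water, and Aqp3, Aqp7 and Aqp9 are aquaglyceroporins, which also pass glycerol. In the kidney, Aqp1 lines the proximal tubule and the thin descending limb, and Aqp7 the last segment of the proximal tubule. In the principal cells of the collecting duct Aqp2 is moved to the apical membrane under vasopressin, while Aqp3 and Aqp4 form the basolateral exit path. Hepatocytes carry Aqp8 on vesicles, the canalicular membrane and mitochondria, and Aqp9 on the sinusoidal membrane, where glycerol enters for glucose production. Aqp6 is an intracellular channel of intercalated cells, and Aqp11 lies in the endoplasmic reticulum. A value in whole tissue does not tell fewer cells of a type from less RNA in each cell.

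Values are log2 expression units as deposited. They start at a shared lowest value of 2.168, at which 5487 probe sets sat on all 12 arrays, and reach 16.49. Array medians were 3.51 to 3.54 in liver and 3.88 to 3.96 in renal cortex, arrays of the same group correlated at 0.9926 to 0.997 over all probe sets, and no pair of arrays was identical. The labelled tissues showed in their markers: all 9 hepatocyte markers tested were higher in control liver than in control renal cortex, and 11 of 12 proximal tubule markers were lower. The level of one probe set cannot be set against that of another, so levels are compared within a probe set only. The number of arrays, 3 to a group, limits the precision of every value.

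**Figure D1:**
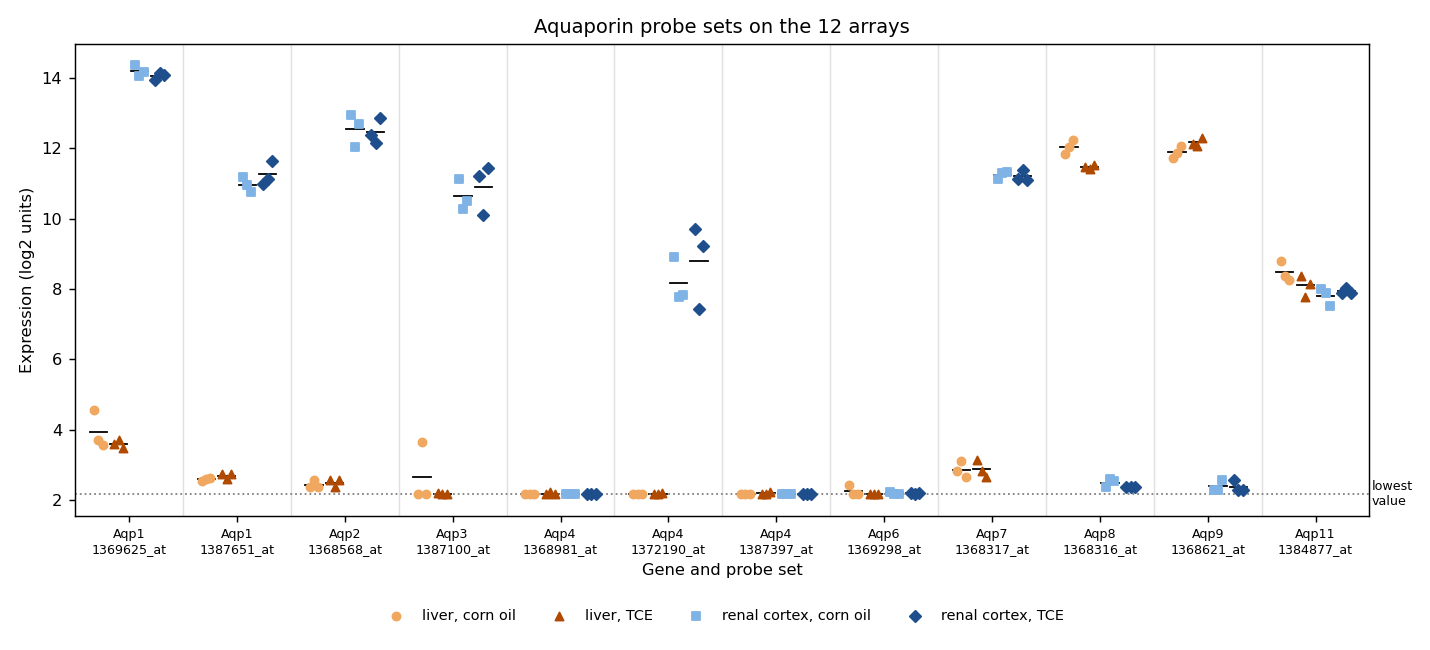
Expression in log2 units (vertical axis) of the 12 aquaporin probe sets (horizontal axis) on the 12 arrays. Points are single arrays, coloured by tissue and treatment, and short lines are means of 3 arrays. Aqp1, Aqp2, Aqp3, Aqp7 and 1 probe set of Aqp4 are high in renal cortex, Aqp8 and Aqp9 are high in liver, and Aqp11 has like levels in both.

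In rats given corn oil, the aquaporins fell into a renal set, a hepatic set and 1 gene present in both tissues. The renal genes were Aqp1, Aqp2, Aqp3, Aqp4 and Aqp7. The hepatic genes were Aqp8 and Aqp9. Aqp11 was the gene with a level well above the lowest value in both tissues. Aqp6 stood near the lowest value everywhere.

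Among the water channels of the renal tubule, Aqp1 read 14.35, 14.05 and 14.16 on the control renal cortex arrays and 4.57, 3.70 and 3.56 on the control liver arrays with probe set 1369625_at. Its second probe set, 1387651_at, read 11.17, 10.96 and 10.76 in renal cortex and 2.54, 2.59 and 2.63 in liver. With both probe sets every renal cortex array stood far above every liver array, by at least 9.47 log2 units with the first and 8.13 with the second. The liver values of the second probe set lay close to the lowest value of the table, and those of the first did not.

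Aqp2, the vasopressin-regulated channel, read 12.93, 12.03 and 12.68 in control renal cortex. It read 2.37, 2.56 and 2.37 in control liver. The nearest arrays of the 2 tissues were 9.47 log2 units apart, with the liver values at the bottom of the scale.

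Aqp3, which passes water and glycerol across the basolateral membrane, read 11.12, 10.26 and 10.50 in control renal cortex. In control liver it read 2.17, 3.65 and 2.17, so that 1 liver array stood above the lowest value and the other two were at it. The nearest arrays of the tissues were 6.61 log2 units apart. Aqp4 was seen by 1 of its 3 probe sets: 1372190_at read 8.90, 7.78 and 7.84 in control renal cortex and 2.17 to 2.18 in control liver. Its other two probe sets, 1368981_at and 1387397_at, stood between 2.17 and 2.23 on all 12 arrays, renal cortex included, so nothing was measured with them and the Aqp4 values below rest on 1 probe set.

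Aqp7, the aquaglyceroporin of the late proximal tubule and of adipocytes, read 11.13, 11.29 and 11.33 in control renal cortex and 2.82, 3.12 and 2.67 in control liver. The tissues were at least 8.01 log2 units apart. Aqp6 read 2.18 to 2.22 on the renal cortex arrays and 2.18 to 2.42 on the liver arrays, and passed the filter on dim probe sets in no comparison.

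In liver the pattern was reversed. Aqp8 read 11.84, 12.02 and 12.22 in control liver and 2.38, 2.59 and 2.53 in control renal cortex. Aqp9 read 11.71, 11.87 and 12.06 in control liver and 2.30, 2.30 and 2.58 in control renal cortex. For both, every liver array stood above every renal cortex array, by 9.25 log2 units or more for Aqp8 and 9.12 for Aqp9. The hepatocyte message albumin (Alb) was also read on renal cortex arrays, at up to 12.80 on control replicate 2 against 16.29 to 16.38 in liver. Aqp8 and Aqp9 on that array read 2.59 and 2.30. Of the other hepatocyte markers, Apoc3 (10.02), Ttr (8.21), Serpina1 (6.35), Cps1 (6.15) and Hpx (5.40) were also highest there among the renal cortex arrays. Cyp2e1 was not, and Apoa1 (2.44) and Tat (2.27) stayed near the lowest value. Carry-over of liver RNA was not tested.

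Aqp11 read 8.78, 8.37 and 8.26 in control liver and 7.99, 7.89 and 7.52 in control renal cortex. The 3 liver arrays were above the 3 renal cortex arrays by a narrow gap of 0.27 log2 units.

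The comparison of control liver with control renal cortex was tested with limma over 18609 probe sets, those with a mean above the 40th percentile, and p-values were adjusted by Benjamini-Hochberg over all of them. All 9 aquaporin probe sets that passed the filter were past the adjusted threshold of 0.05, 3 higher in liver and 6 lower, where 61.9% of all tested probe sets were past it (26.8% higher and 35.1% lower). Aqp2, Aqp4, Aqp8 and Aqp9 passed the filter only through the tissue where they were high, so this count and their adjusted p-values are descriptions. Differences of at least 8-fold past the same threshold were found for 12.4% of all tested probe sets. As liver minus renal cortex, Aqp8 differed by 9.52 ± 0.12 (SE; limma adjusted p = 1.63e-07) and Aqp9 by 9.48 ± 0.13 (limma adjusted p = 2.06e-07). The renal genes differed by -10.25 ± 0.29 for Aqp1 (1369625_at), -8.38 ± 0.12 for Aqp1 (1387651_at), -10.12 ± 0.24 for Aqp2, -7.96 ± 0.48 for Aqp3, -6.00 ± 0.31 for Aqp4 and -8.38 ± 0.14 for Aqp7, with limma adjusted p between 1.63e-07 and 4.89e-05 over these 8 probe sets. Except for Aqp1 with 1369625_at, whose liver values stood above the bottom of the table, the low side lay near the lowest values and these are not exact fold changes.

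Aqp11 differed by 0.67 ± 0.19 log2 units (95% interval 0.20 to 1.14), a 1.59-fold higher level in control liver (limma adjusted p = 0.0256). This call was lost with no filter (adjusted p = 0.0749). It was also lost without control renal cortex replicate 2 (0.0566) or 3 (0.0684) and without control liver replicate 1 (0.0537) or 2 (0.054). With each array centred on its median, which differs between the tissues, the difference was 1.08 (adjusted p = 0.00285).

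In the rats given TCE the same probe sets were high in the same tissues. On the TCE arrays Aqp1 read 13.94, 14.14 and 14.09 in renal cortex and 3.59, 3.72 and 3.48 in liver with 1369625_at, and 10.99, 11.13 and 11.64 against 2.74, 2.59 and 2.74 with 1387651_at. Aqp2 read 12.38, 12.15 and 12.86 in renal cortex and 2.56, 2.37 and 2.56 in liver. Aqp3 read 11.20, 10.09 and 11.43 against 2.19, 2.17 and 2.17. These renal genes stood apart between tissues in TCE rats as in controls, with the liver values of Aqp2 and Aqp3 at the bottom of the scale.

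Aqp4 (1372190_at) read 9.69, 7.43 and 9.23 in renal cortex and 2.17, 2.17 and 2.21 in liver of the TCE rats. Aqp7 read 11.13, 11.37 and 11.10 against 3.15, 2.82 and 2.67. Aqp8 read 11.45, 11.42 and 11.51 in liver and 2.38 on each of the 3 renal cortex arrays, and Aqp9 read 12.13, 12.06 and 12.30 in liver and 2.56, 2.30 and 2.30 in renal cortex. No renal cortex value of Aqp8 or Aqp9 came near a liver value.

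Aqp11 read 8.37, 7.78 and 8.15 in liver and 7.89, 8.04 and 7.88 in renal cortex of the TCE rats, and here the tissues overlapped. By limma 8 of 9 aquaporin probe sets were past the threshold in these rats, 2 higher in liver and 6 lower, with 61.2% of all tested probe sets past it (26.9% higher and 34.2% lower). Aqp2, Aqp3, Aqp4, Aqp8 and Aqp9 passed the filter only through the tissue where they were high, so this count and their adjusted p-values too are descriptions. Aqp11 was the exception, with a difference of 0.17 ± 0.16 log2 units (95% interval -0.24 to 0.57, limma adjusted p = 0.407). With the same centring this difference became 0.55 and passed (adjusted p = 0.0254). The tissue differences of the other 8 probe sets ran from -10.46 for Aqp1 (1369625_at) to 9.77 for Aqp9, and their adjusted p-values from 1.87e-08 to 0.000239. Both tissue comparisons use the same 12 arrays as the comparisons of TCE with control below.

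**Figure D2:**
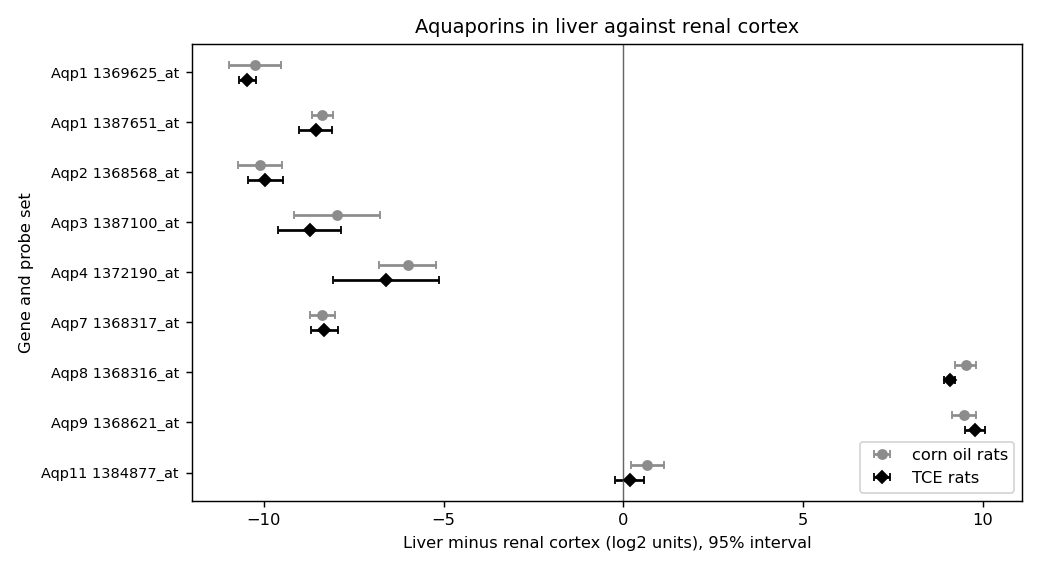
Difference between liver and renal cortex in log2 units (horizontal axis) for the 9 aquaporin probe sets tested (vertical axis), in control rats and in TCE rats, with 95% intervals from limma. Aqp8 and Aqp9 lie near 9 and 10 to the right in both sets of rats, the renal probe sets lie between -6.00 and -10.46, and Aqp11 lies at 0.67 in controls and 0.17 in TCE rats.

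The genes lie apart on the genome except for a pair of clusters. In the rat assembly GRCr8 of RefSeq, Aqp2 (chr7:132590286-132595321) and Aqp6 (chr7:132611069-132614004) are 15.7 kb apart with Aqp5 between them, and Aqp7 (chr5:60968495-60982618) is followed 52.5 kb further on by Aqp3 (chr5:61035165-61040683). Neighbours shared their tissue in one cluster and not in the other: Aqp3 and Aqp7 were both high in renal cortex, while Aqp2 was high there and Aqp6 stood near the lowest value. Aqp5, which is no member of the set described here, read 2.23 to 2.31 on all arrays. Aqp1 lies at chr4:85812784-85824964, Aqp8 at chr1:187424314-187430243, Aqp9 at chr8:80678027-80718273 and Aqp11 at chr1:161457752-161467918.

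The start regions of 3 renal and both hepatic genes are shown. Each runs from 250 bases before to 50 bases after the RefSeq start in GRCr8, 5′ to 3′ on the strand of the gene. Capitals mark matches, on either strand, to 8 short motifs: the TATA box TATAAA, the cyclic AMP response element core TGACGT, the GATA core AGATAA, the E-box CACGTG, the D-box TTATGNAA, the HNF1 motif GTTAAT, the HNF4 core CAAAGTCC and the C/EBP core TTGCNNAA. The windows are Aqp1 chr4:85812534-85812833 (plus strand), Aqp2 chr7:132590036-132590335 (plus), Aqp3 chr5:61040634-61040933 (minus), Aqp8 chr1:187424193-187424492 (plus) and Aqp9 chr8:80718139-80718438 (minus).
Aqp1: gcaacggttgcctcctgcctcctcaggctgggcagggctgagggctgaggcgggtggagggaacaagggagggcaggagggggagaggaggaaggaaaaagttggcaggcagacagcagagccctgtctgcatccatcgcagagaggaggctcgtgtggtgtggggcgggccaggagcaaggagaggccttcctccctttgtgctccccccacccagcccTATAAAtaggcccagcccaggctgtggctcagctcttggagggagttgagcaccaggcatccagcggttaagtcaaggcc
Aqp2: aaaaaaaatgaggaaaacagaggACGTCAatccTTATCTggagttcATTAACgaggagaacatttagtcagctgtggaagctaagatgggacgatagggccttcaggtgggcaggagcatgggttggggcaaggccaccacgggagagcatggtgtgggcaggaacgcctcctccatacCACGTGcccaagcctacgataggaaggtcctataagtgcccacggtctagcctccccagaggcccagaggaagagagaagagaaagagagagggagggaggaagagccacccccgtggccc
Aqp3: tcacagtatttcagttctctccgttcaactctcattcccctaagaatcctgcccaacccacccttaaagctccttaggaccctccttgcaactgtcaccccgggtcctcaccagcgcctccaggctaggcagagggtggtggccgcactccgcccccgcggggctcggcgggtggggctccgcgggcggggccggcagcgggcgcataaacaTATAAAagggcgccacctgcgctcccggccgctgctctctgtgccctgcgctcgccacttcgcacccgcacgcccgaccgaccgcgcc
Aqp8: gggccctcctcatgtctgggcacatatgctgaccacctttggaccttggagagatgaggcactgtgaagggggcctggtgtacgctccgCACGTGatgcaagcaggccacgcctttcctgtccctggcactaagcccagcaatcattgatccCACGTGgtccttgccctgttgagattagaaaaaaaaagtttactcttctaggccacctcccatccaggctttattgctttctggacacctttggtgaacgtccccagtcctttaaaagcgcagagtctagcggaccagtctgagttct
Aqp9: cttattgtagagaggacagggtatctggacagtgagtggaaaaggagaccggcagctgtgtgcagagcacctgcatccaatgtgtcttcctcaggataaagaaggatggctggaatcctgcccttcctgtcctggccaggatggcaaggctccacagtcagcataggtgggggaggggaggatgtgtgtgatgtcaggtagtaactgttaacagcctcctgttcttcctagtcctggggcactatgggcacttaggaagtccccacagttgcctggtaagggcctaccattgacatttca

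Aqp1 and Aqp3, both renal, hold a TATA box that begins 30 and 38 bases before the start, a motif found in 14.2% of all 33469 RefSeq promoter windows of this length. The window of Aqp2 holds 4 matches. Its cyclic AMP response element core (in 7.94% of windows), GATA core (11.6%) and HNF1 motif (7.45%) lie on the reverse strand from 227, 217 and 204 bases before the start, and its E-box (6.42%) from 71 bases before. In the Aqp8 window there are 2 E-boxes, 161 and 98 bases before the start, which 0.52% of all windows match by holding 2 or more. The Aqp9 window holds none of the 8 motifs, and neither does that of Aqp11, while Aqp6 has an E-box 95 bases before its start. The D-box (3.66% of windows), the HNF4 core (1.4%) and the C/EBP core (10.6%) were found in none of the 5 sequences printed. These are matches of letters, and no binding was measured. Aqp7 is without an entry among the 8 genes of the set that the promoter table holds.

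TCE did not move any aquaporin past the adjusted threshold in liver. The nearest was Aqp8, the water channel of hepatocyte vesicles and mitochondria, whose 3 TCE values (11.45, 11.42 and 11.51) all lay below its 3 control values (11.84, 12.02 and 12.22), with a gap of 0.32 log2 units. Its mean was 11.46 ± 0.05 (SD, n = 3) in TCE liver and 12.02 ± 0.19 (SD, n = 3) in control liver. The difference of -0.56 ± 0.11 (SE; 95% interval -0.84 to -0.28), a 1.48-fold lower level, had an unadjusted p of 0.00334 and a limma adjusted p of 0.17. Aqp8 ranked 366th by p among 18610 probe sets.

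Aqp9, the hepatocyte glycerol channel, went the other way: 12.13, 12.06 and 12.30 with TCE against 11.71, 11.87 and 12.06 in controls, with a difference of 0.28 ± 0.12 (95% interval -0.02 to 0.59, limma adjusted p = 0.385). Its lowest TCE array and its highest control array both read 12.06. Aqp11 read 8.37, 7.78 and 8.15 with TCE against 8.78, 8.37 and 8.26 in controls, a difference of -0.37 ± 0.21 (95% interval -0.90 to 0.16, limma adjusted p = 0.48) with overlapping groups.

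The renal genes were dim in liver and their values there carry little. Aqp1 differed by -0.34 ± 0.29 with one probe set and 0.11 ± 0.07 with the other, opposite in sign. Aqp2 differed by 0.07 ± 0.10 and Aqp7 by 0.01 ± 0.18. For these 4 probe sets the limma adjusted p lay between 0.551 and 0.996, and their groups overlapped. Aqp3, Aqp6 and the 3 probe sets of Aqp4 were not tested in liver.

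In all, 7 aquaporin probe sets of 6 genes were tested in liver. None passed by limma, where 0 of all 18610 probe sets did (0%). At an unadjusted p under 0.05 there was 1, Aqp8, against 13.8% of all tested probe sets in either direction and 6.52% lower. The groups did not overlap for 1 of 7, Aqp8 again, against 19.2% of all and 8.8% lower. The median difference of the 7 was 0.01, with 4 higher and 3 lower, and that of all probe sets 0.02, with 54.4% higher and 45.4% lower. When the spread was estimated over all 12 arrays in 1 fit, Aqp8 did pass, with the same difference and a limma adjusted p of 0.0249. In that fit 384 probe sets passed in all. The spread there takes in the renal cortex arrays, where Aqp8 lay at the bottom of the scale (SD 0 with TCE and 0.106 without). The smaller p-value therefore does not rest on the spread of the liver arrays alone.

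**Figure D3:**
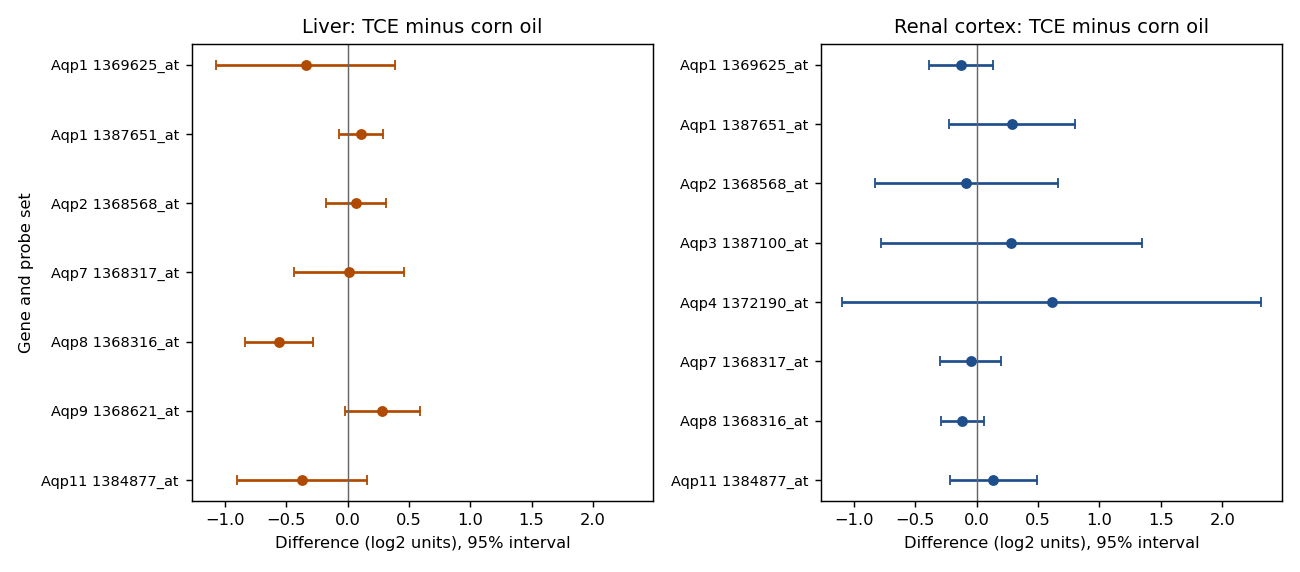
Difference between TCE and corn oil in log2 units (horizontal axis) for the aquaporin probe sets tested (vertical axis), in liver on the left and renal cortex on the right, with 95% intervals from limma. In liver the interval of Aqp8 lies wholly below 0 (-0.84 to -0.28) and the other 6 cover 0, and in renal cortex all 8 intervals cover 0.

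The spread within the liver groups differed between the genes. The SD of Aqp8 over the 3 TCE arrays was 0.0487, smaller than that of most of the 7397 probe sets with a mean above 8, whose median SD was 0.121. In control liver its SD of 0.19 compared with a median of 0.128. The SD of Aqp9 was 0.126 with TCE and 0.176 without. Aqp11 was the more variable gene, with an SD of 0.296 in TCE liver, above that of 91.5% of bright probe sets.

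The 2 liver groups also differed in a measure of RNA or labelling quality. This was the gap between the probe sets for the 3′ end and the 5′ end of the Gapdh message. It was 1.49 ± 0.254 log2 units (SD, n = 3, 1.21 to 1.70) on the TCE liver arrays. On the control liver arrays it was 0.814 ± 0.0398 (SD, n = 3, 0.78 to 0.86), with no overlap. The same gap for the Actb message did overlap, at 5.67, 5.09 and 5.22 with TCE and 5.24, 4.31 and 4.36 without. The fit of Aqp8 with the Gapdh gap as a covariate gave -0.54 with a limma adjusted p of 0.896, and Aqp7 turned to -0.52. Hepatocyte markers, 9 on the array and all tested, had a median difference of -0.03 and none passed at an unadjusted p under 0.05. Their summed level was 18.51 to 18.52 log2 units in TCE liver and 18.52 to 18.58 in control liver.

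Markers of other liver cells were read in the same way, counting those at an unadjusted p under 0.05. Of all tested probe sets 13.8% were under it in either direction. Of 4 cholangiocyte markers tested 0 passed (summed level 7.03 to 7.23 with TCE, 6.69 to 7.25 without). On the liver arrays Spp1 read 2.39 to 2.62 and Cftr 2.29 to 3.46, near the lowest value. Epcam was the brightest of them, at 6.12 to 6.91, so the cholangiocyte list could show little. Of 7 endothelial markers 0 passed (11.75 to 12.06 against 11.69 to 12.03). Of 8 smooth muscle, stellate and fibroblast markers 3 were higher, Tagln by 1.22, Myh11 by 0.94 and Dcn by 1.23 (summed level 12.13 to 12.56 against 12.03 to 12.09). All 3 erythroid markers tested were lower, Slc4a1 by -1.06, Hbb by -0.74 and Alas2 by -1.33 (13.42 to 14.01 against 14.29 to 14.65). Slc4a1 is also on the intercalated cell list used for renal cortex below. None of these passed after adjustment by limma. The part of these shifts and of the Gapdh gap in the Aqp8 difference was not tested.

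**Figure D4:**
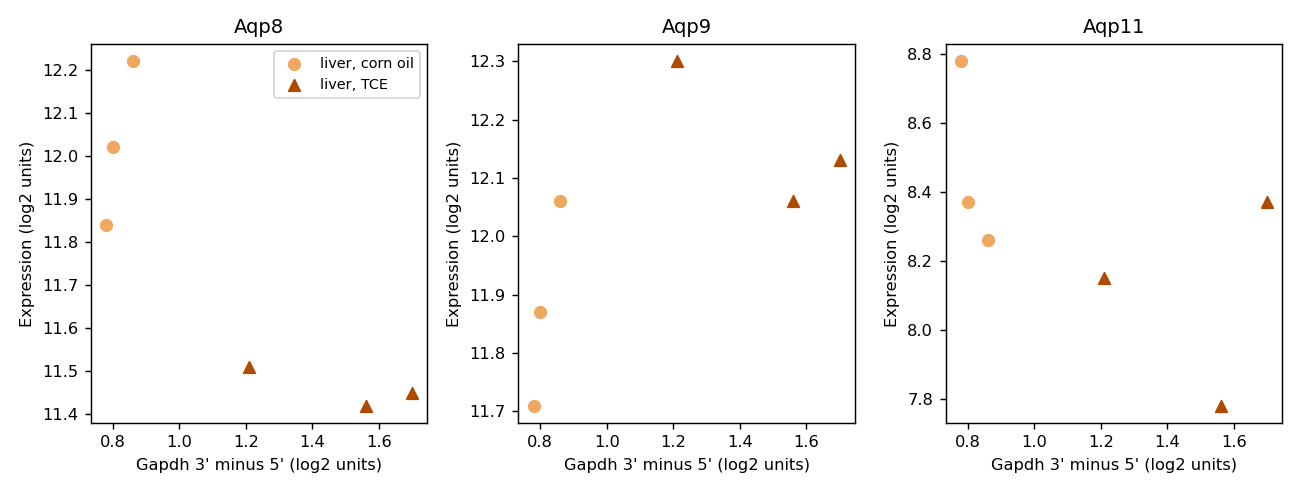
Expression in log2 units (vertical axis) of Aqp8, Aqp9 and Aqp11 on the 6 liver arrays against the gap from the 3′ end to the 5′ end of the Gapdh message on the same array in log2 units (horizontal axis). The TCE arrays lie at gaps of 1.21 to 1.70 and the control arrays at 0.78 to 0.86, so that treatment and gap change together.

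Glycerol enters hepatocytes through Aqp9 and is phosphorylated by glycerol kinase, so the genes of glycerol uptake and use were read beside it. Of 18 genes listed 17 were on the array, and in liver none of the 17 passed by limma. At an unadjusted p under 0.05, where 13.8% of all tested probe sets were, there were 0 higher and 3 lower: Tkfc, a triose kinase, by -0.37 ± 0.07, Mgll, monoglyceride lipase, by -0.61 ± 0.15, and Gpam, a glycerol-3-phosphate acyltransferase, by -1.14 ± 0.39. The median difference of the list was -0.12. Glycerol kinase (Gk, 1391661_at) differed by 0.25 ± 0.19 (limma adjusted p = 0.593) and Gpd1, the cytosolic glycerol-3-phosphate dehydrogenase, by 0.00 ± 0.11 with its brighter probe set. Like Aqp9, both were higher in control liver than in control renal cortex, Gk by 1.64 ± 0.19 (limma adjusted p = 0.000718) and Gpd1 by 1.28 ± 0.13 (limma adjusted p = 0.000484).

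In renal cortex TCE moved no aquaporin past the threshold, adjusted or not. Aqp1 differed by -0.13 ± 0.10 (95% interval -0.39 to 0.13) with 1369625_at and by 0.29 ± 0.20 (-0.23 to 0.80) with 1387651_at. The groups overlapped with both, and the signs were opposite. Aqp7 differed by -0.05 ± 0.10 (-0.30 to 0.20), with TCE values of 11.13, 11.37 and 11.10 inside and just beyond the control range of 11.13 to 11.33. As a ratio of TCE to control its interval ran from 0.81 to 1.15.

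The principal cell channels were less precisely measured. Aqp2 averaged 12.46 ± 0.361 (SD, n = 3) with TCE and 12.55 ± 0.461 (SD, n = 3) without, a difference of -0.09 ± 0.30 (-0.83 to 0.66). Aqp3 averaged 10.91 ± 0.71 and 10.62 ± 0.44, a difference of 0.28 ± 0.42 (-0.78 to 1.35). Aqp4 averaged 8.78 ± 1.19 and 8.17 ± 0.63, a difference of 0.61 ± 0.68 (-1.10 to 2.32). Aqp11 differed by 0.13 ± 0.14 (-0.22 to 0.49), and Aqp8, at the bottom of the scale in this tissue, by -0.12 ± 0.07. None of the groups was apart from the other.

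By limma 0 of the 8 aquaporin probe sets tested in renal cortex passed, with adjusted p from 0.479 to 0.92, where 0 of all 18609 did (0%). At an unadjusted p under 0.05 there were 0, against 14.5% of all tested probe sets, and 0 had groups that did not overlap, against 19.5%. The median difference was 0.04, with 4 higher and 4 lower, beside 0.0023 over all probe sets, of which 51.1% were higher and 48.7% lower. Aqp6, Aqp9 and the other two probe sets of Aqp4 were not tested here.

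Aqp2, Aqp3 and Aqp4 varied widely between rats of the same group. In TCE renal cortex the SD of Aqp3 (0.714) exceeded that of 99.6% of the 7653 probe sets with a mean above 8, and the SD of Aqp4 (1.19) that of 99.9%, where the median SD was 0.116. In control renal cortex Aqp2 (0.461), Aqp3 (0.443) and Aqp4 (0.63) exceeded 97.9%, 97.7% and 99.2% of bright probe sets. Aqp7 stayed close to the middle, with an SD of 0.148 with TCE (above 63.8%) and 0.105 without (above 48.8%). The probe sets of Aqp1 differed here: the SD of 1369625_at exceeded 44.9% of bright probe sets with TCE and 70.2% without, and that of 1387651_at 95.3% and 82.7%.

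The arrays that were high for Aqp3 were also those that were high for Aqp4. Control replicate 1, TCE replicate 1 and TCE replicate 3 gave the 3 highest values of Aqp3 (11.12, 11.20 and 11.43) and of Aqp4 (8.90, 9.69 and 9.23), and TCE replicate 2 gave the lowest of both (10.09 and 7.43). Slc14a2, the urea transporter of the inner medullary collecting duct and thin limb, was seen by 1 of its 5 probe sets, which read 8.97, 7.32 and 6.05 on the control arrays and 8.20, 2.24 and 8.68 on the TCE arrays. Its 3 highest arrays and its lowest array were the same as those of Aqp3 and Aqp4. For Aqp2 the order was different: control replicate 1 (12.93) and TCE replicate 3 (12.86) were highest, control replicate 2 (12.03) was lowest and TCE replicate 2 read 12.15.

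**Figure D5:**
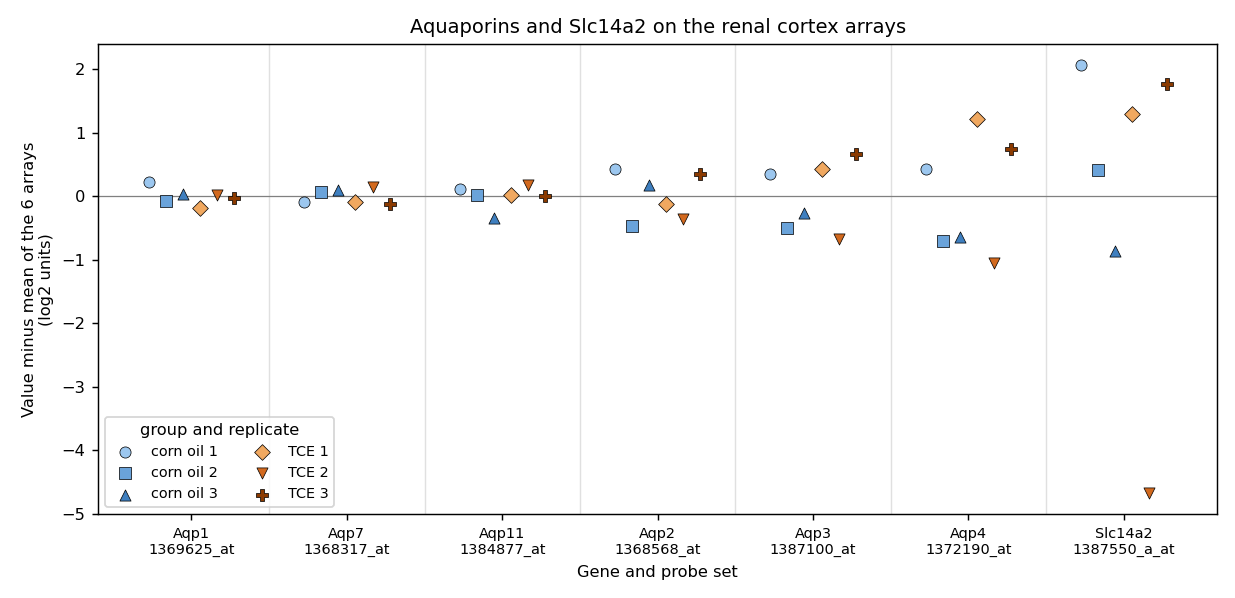
Value on each of the 6 renal cortex arrays minus the mean of the 6, in log2 units (vertical axis), for aquaporin probe sets and Slc14a2 (horizontal axis). Points are single arrays, identified by group and replicate. TCE replicate 2 is the lowest for Aqp3, Aqp4 and Slc14a2, and the points of Aqp7 lie close together.

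Without TCE replicate 2, the renal cortex difference of Aqp3 was 0.69 (limma adjusted p = 0.306) and that of Aqp4 1.29 (limma adjusted p = 0.233), while that of Aqp2 was 0.07. Genes of the medulla and of the response to tonicity were read on the same arrays. Akr1b1, aldose reductase, read 8.99, 8.71 and 8.76 in controls and 10.37, 8.58 and 10.78 with TCE, again lowest on TCE replicate 2. Nfat5, the tonicity-responsive transcription factor, was lowest there too (11.87, 11.40 and 11.65 against 11.40, 11.02 and 11.42), but Slc6a6, the taurine transporter, was lowest on TCE replicate 1 (12.62, 12.30 and 12.70 against 11.46, 12.14 and 12.22). The differences were 1.09 for Akr1b1, -0.36 for Nfat5 and -0.60 for Slc6a6. Of that list 5 genes were tested, 1 above and 4 below 0, with 0 past an unadjusted p of 0.05 and a median of -0.36, and its summed level was 13.02 to 13.6 with TCE and 13.26 to 13.71 without. The Gapdh gap differed among the TCE arrays too: it was 0.59 and 0.51 on replicates 1 and 3 and 0.87 on replicate 2. On the control arrays it was 1.02, 0.85 and 1.05. Control replicate 1, at 1.02, was also high for Aqp3 and Aqp4. With the gap as a covariate the differences turned to -0.40 for Aqp3 (adjusted p = 0.948) and -0.56 for Aqp4 (adjusted p = 0.961). How much medulla each tissue portion held is not given in the labels. The part of the medulla and of the Gapdh gap in the spread was not tested.

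Markers of the principal cell itself were mixed. Fxyd4, a regulator of the sodium pump in the collecting duct, read 10.78, 9.81 and 9.57 in controls and 10.22, 8.97 and 10.59 with TCE, which gives the same 3 highest arrays and the same lowest array as Aqp3 and Aqp4. It was named, like Alb, after its values were seen. Avpr2, the vasopressin receptor of the collecting duct, read 6.62, 6.13 and 6.26 in controls and 6.18, 6.09 and 6.36 with TCE (difference -0.13 ± 0.15, limma adjusted p = 0.71), and was lowest on TCE replicate 2 too. Hsd11b2, which inactivates glucocorticoid in mineralocorticoid target cells, read 12.14, 12.50 and 12.35 against 12.33, 12.41 and 12.20 (difference -0.01 ± 0.11), without that order. Scnn1g, a subunit of the epithelial sodium channel, read 8.17, 8.44 and 8.34 against 8.77, 8.53 and 8.69 with its brighter probe set. These groups did not overlap, as for 19.5% of all tested probe sets, and differed by 0.35 ± 0.10 (unadjusted p = 0.0173, limma adjusted p = 0.262). With its dimmer probe set the groups overlapped and differed by 0.30 ± 0.54.

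Cell type markers were counted at an unadjusted p under 0.05, where 14.5% of all tested probe sets were in either direction. Of 9 principal cell markers tested, 3 were higher and 0 lower: Stc1 by 1.35 ± 0.31, Scnn1g by 0.35 and Tfcp2l1 by 0.27. The median of the list was 0.27, and its summed level was 13.55 to 13.72 log2 units with TCE and 13.5 on the control arrays. Of 7 intercalated cell markers 1 was higher (Foxi1 by 0.34; summed level 13.27 to 13.42 against 13.16 to 13.21). The proximal tubule list had 1 of 12 higher (Cubn by 0.16; 17.72 to 17.89 against 17.76 to 17.85), the thick ascending limb list 0 of 6 (16.77 to 17.04 against 16.68 to 16.92) and the distal convoluted tubule list 1 of 3 (Klk1 by 0.81; 13.85 to 14.41 against 13.95 to 14.23). None passed after adjustment by limma. Adipocyte markers, read because Aqp7 is also an adipocyte gene, summed to 8.8 to 9.52 with TCE and 9.3 to 9.78 without, with 0 of 2 tested past an unadjusted p of 0.05. The part of these differences in the aquaporin values was not tested.

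The route from vasopressin to Aqp2 was read within a list of 35 genes for vasopressin signalling and principal cell water and urea transport. It holds genes of the receptor, adenylate cyclase, protein kinase A, its anchors, phosphodiesterases and trafficking proteins. It also holds urea transporters, sodium channel subunits and their regulators, and other receptors. In renal cortex 31 were tested and none passed by limma. At an unadjusted p under 0.05, where 14.5% of all tested probe sets were, 4 were higher and 2 lower. Scnn1g, also counted among the principal cell markers, was among the higher ones and Nedd4l among the lower. Of the 31, 12 lay above and 19 below 0, with a median of -0.06. The smallest p belonged to Prkacb, a catalytic subunit of protein kinase A, which read 9.91, 9.97 and 9.85 in controls and 10.34, 10.29 and 10.31 with TCE (0.40 ± 0.06, limma adjusted p = 0.178). Prkaca, the other catalytic subunit on the list, went the opposite way, at -0.38 ± 0.11 (limma adjusted p = 0.271). Pde4b, a cyclic AMP phosphodiesterase, differed by 0.73 ± 0.20. In liver 31 were tested, with 2 higher and 2 lower at that level, where 13.8% of all were, and a median of 0.03. There Prkacb differed by -0.41 ± 0.07, Akap5, an anchor of the kinase, by 1.36 ± 0.28, and Avpr1a, the vasopressin receptor of hepatocytes, by -0.80 ± 0.24, and none passed by limma. In renal cortex the glycerol list, read beside Aqp7, had 0 of 16 past the adjusted threshold, 1 higher and 6 lower at an unadjusted p under 0.05 beside 14.5% of all, and a median of -0.31. Mgll (-0.44 ± 0.07), Agpat2 (-0.40) and Pnpla2 (-0.32) had its smallest p-values.

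Whether TCE acted differently on an aquaporin in the 2 tissues was tested over all 12 arrays as the liver effect minus the renal cortex effect. None of the 9 aquaporin probe sets tested passed by limma, where 1.06% of all tested probe sets did. Aqp2, Aqp3 and Aqp4 lay near the bottom of the scale in liver, and Aqp8 and Aqp9 in renal cortex. They passed the filter through the tissue where they were high, so their values do not compare a measured effect in both tissues. At an unadjusted p under 0.05 there was 1, against 17.7% of all in either direction and 8.83% lower. That was Aqp8, with a difference of -0.44 ± 0.14 (95% interval -0.76 to -0.13, limma adjusted p = 0.154), and its renal cortex values lie at the bottom of the scale. Aqp11 differed by -0.50 ± 0.26 (-1.09 to 0.08, limma adjusted p = 0.35) and Aqp9 by 0.29 ± 0.18 (limma adjusted p = 0.433). The other 6 probe sets had limma adjusted p from 0.557 to 0.917. The fall in the tissue difference of Aqp11, from 0.67 in controls to 0.17 in TCE rats, is this same value of -0.50 and was therefore not past the threshold. Among the 31 genes tested of the vasopressin and principal cell transport list 1 passed: Prkacb, at -0.81 ± 0.10 (limma adjusted p = 0.0131). Prkacb was lower with TCE in liver and higher in renal cortex, with no overlap of groups in either tissue. Groups did not overlap for 19.2% of all tested probe sets in liver and 19.5% in renal cortex.

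For the brightest probe set of each measured aquaporin, the genes with the most similar profile over the 12 arrays were found as those with the smallest root mean square difference, after each profile was centred on its mean, among 10645 other genes. For Aqp8 they were Aldh1l2 (0.196 log2 units) and Mgst2 (0.234), and for Aqp9 Mreg (0.147) and Cyp4f4 (0.153). For Aqp1 they were Sostdc1 (0.218) and Slc22a12 (0.237), and for Aqp7 Ly6i (0.147) and Prr15 (0.154). Sostdc1 was also the nearest to Aqp2 (0.229), before Dnase1 (0.243). The variable genes had more distant neighbours: Spon1 (0.396) and Fabp3 (0.404) for Aqp3, and Cd9 (0.394) and Ampd3 (0.426) for Aqp4. Aqp11 was nearest to Ldlrad4 (0.149) and F11r (0.168). The difference between tissues dominates these distances for all but Aqp11.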

How the data were processed

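Total RNA from 2 tissues of 6 rats was read on GeneChip arrays of the rat genome, where each probe set holds several oligonucleotides for a transcript. The values used are log2 expression values in a table deposited for the whole series, with 31099 probe sets and 12 arrays; the log2 scale was inferred from their range. The submitters' processing notes name affy and limma. How the authors corrected background, normalized and summarised probes is not stated in the labels, so the origin of the floor of the table is unknown.

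Tissue and the title's treated or control word placed each array in its group. Gene symbols came from GEO's platform annotation, which gives 1 symbol for 20826 probe sets, and all 12 aquaporin probe sets had a gene ID with the same symbol in RefSeq's GRCr8 table. Two-sided limma tests (version 3.58.1, R 4.3.3, default lmFit and eBayes) took the deposited values of all probe sets, without the 57 controls, whose mean exceeded the 40th percentile. Benjamini-Hochberg adjustment covered all of them, with a threshold of 0.05. Each comparison of 2 groups used its 6 arrays and the difference of effects all 12, as independent. Per the labels' protocols both tissues were taken from the same 6 rats, but which liver goes with which kidney is unknown. Unless marked SD, ± is the moderated standard error.

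The fits were tested on simulated data, in the same comparisons. In liver 63% of probe sets changed by 1 log2 unit and 98% of those changed by 2 were recovered. In renal cortex the shares were 58% and 94%. Of the probe sets called, 5.29% were false in liver and 4.4% in renal cortex. In control liver against renal cortex 7.32% were false. Each simulation changed only 100 of 18609 probe sets by 1 log2 unit and 100 by 2, and the shares hold for that setting. The real comparison of control liver with control renal cortex called 11513 probe sets. The simulated shares therefore do not describe the calls between tissues. Changes below 1 log2 unit were not simulated. Recovery was not split by spread, so these shares do not apply to genes as variable as Aqp3 and Aqp4.

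The members and the gene lists were chosen with earlier results of these data known. In the lists a gene is represented by its brightest singly named probe set. Of other genes, Avpr2, Scnn1g, Hsd11b2, Slc14a2, Gk and Gpd1 were named whatever their values, as were up to 3 of each list with the smallest p and the 2 most similar profiles for each aquaporin. Alternatives were the filter, 1 probe set per gene, renewed quantile normalization, median centring, the variance model, weights per array, the replicate number as a block, 1 fit over 12 arrays, the threshold, the Gapdh gap as a covariate, and leaving out each array.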

Additional observations from a re-analysis of the deposited data

Results flagged for a closer look

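No aquaporin differed between the tissues in its response to TCE past the adjusted threshold. Among the genes listed beside them, 3 did in the limma fit over 12 arrays, as liver effect minus renal cortex effect. Of all tested probe sets 1.06% did. The 3 were 1 of 31 tested on the vasopressin list, 1 of 8 on the smooth muscle, stellate and fibroblast list, and Slc4a1. Slc4a1 was 1 of 3 on the erythroid list and 1 of 7 on the intercalated cell list. The other lists had none. Prkacb, a catalytic subunit of protein kinase A, had a difference of -0.81 ± 0.10 (limma adjusted p = 0.0131), from -0.41 in liver and 0.40 in renal cortex. Prkaca, the other catalytic subunit listed, had 0.29 ± 0.16 (limma adjusted p = 0.383). The smooth muscle gene Tagln had 1.36 ± 0.16 (limma adjusted p = 0.0126), from 1.22 in liver and -0.14 in renal cortex. Slc4a1, the anion exchanger of red cells and intercalated cells, had -1.38 ± 0.24 (limma adjusted p = 0.0308), from -1.06 and 0.32. Leaving out each array in turn kept Prkacb (adjusted p 0.0112 to 0.042) and Tagln (0.0032 to 0.042) past the threshold. Slc4a1 lost it without any one of control renal cortex replicates 1, 2 and 3, TCE renal cortex replicates 1 and 3, control liver replicate 3, or TCE liver replicates 1 and 2, at up to 0.0857, and with no filter on dim probe sets (0.0641).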

How the results depend on the processing

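No aquaporin was past the threshold in liver, renal cortex or the difference of effects, and the alternatives gave the same count of 0 with 1 exception. The fit of liver over all 12 arrays gave 1 (Aqp8, limma adjusted p = 0.0249). Its spread takes in the renal cortex arrays, where Aqp8 lay at the bottom of the scale. For Aqp8 in liver the adjusted p otherwise ran from 0.125 to 0.896, and from 0.19 to 0.357 with single arrays left out. Leaving out each array gave counts of 0 in these 3 comparisons, 8 to 9 for control liver against renal cortex and 8 for TCE rats. In liver Aqp7 turned to 0.00 under median centring, -0.03 with array weights and -0.52 with the Gapdh gap as a covariate. That covariate also turned renal cortex Aqp1 (1369625_at) to 0.02, Aqp3 to -0.40, Aqp4 to -0.56 and Aqp7 to 0.12. Leaving out single arrays moved some small differences across 0: liver Aqp7 ran from -0.13 to 0.14. In renal cortex Aqp2 ran from -0.34 to 0.10, Aqp11 from -0.01 to 0.23 and Aqp7 from -0.13 to 0.00. In the difference of effects Aqp1 ran from -0.40 to 0.11 (1369625_at) and -0.31 to 0.01 (1387651_at), Aqp2 from -0.04 to 0.41 and Aqp7 from -0.08 to 0.19. The cause was not tested. Of the single values of aquaporins and of Prkacb, Tagln and Slc4a1 under an alternative, 783 kept direction and side of the threshold, 20 reversed, 16 lost a call and 2 gained one.

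Deviations from the group mean correlated at 0.01 to 0.08 between liver and renal cortex arrays of equal replicate number. They correlated at -0.07 to 0.05 between those of unequal number. Between TCE and control arrays of the same tissue, which come from different rats, equal numbers gave -0.07 to 0.03 and unequal numbers -0.12 to 0.16. All the values between tissues lay within this last range. The slight lead of equal numbers between tissues was not tested, and the numbers were not taken as pairs. With the replicate number as a block, 0, 0 and 0 aquaporin probe sets passed in liver, renal cortex and the difference of effects, and 9 and 8 between tissues; over all probe sets the block moved the difference of effects from 198 to 50 calls. Over all probe sets, liver calls were 0 against 21 with no filter, 384 over 12 arrays and 37 at a threshold of 0.1, and renal cortex calls 0 against 5, 43 and 1, and 1 with the stricter filter. The difference of effects gave 57 with 1 probe set per gene, 448 with array weights, 698 at a threshold of 0.1, 108 at 2-fold or more and 40 to 411 with single arrays left out. Control liver against renal cortex gave 11513, with 7308 for 1 probe set per gene and 6845 at 2-fold or more, and TCE rats 11382, 7194 and 6729. Dim probe sets limit what can be said of Aqp6, of Aqp4 outside 1 probe set, and of renal genes in liver.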

Other observations

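Of the family outside the 9 genes, Aqp12a and Mip, the lens aquaporin, read 2.17 on all 12 arrays, the lowest value of the table.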
